A study of Arabidopsis thaliana with 12 samples.

Results

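SUVH1 to SUVH9 are the 9 listed members of a gene family of Arabidopsis thaliana, and they were taken by locus identifier. The rule itself uses no measured value, but the list was chosen with earlier results of these data known. The 9 genes stand among 27444 protein-coding nuclear genes in the table analysed, and all 9 had a value in every context and group. DNA methylation was measured by bisulfite sequencing, which tells methylated from unmethylated cytosines, in nuclei of shoot stem cells from inflorescence apices at day 28. There are 12 samples, 2 for each of 6 groups. All plants were Col-0 with the stem cell reporter pCLV3::H2BmCherry, and this background is called wt. The poliv mutant (nrpda-3) has an insertion in NRPD1, the largest subunit of RNA polymerase IV, and the ddm1 mutant (ddm1-10) has one in DDM1, a chromatin remodeller. Each genotype was kept as control or heated to 37 °C for 1 day, at an age of 6 days, and left to recover for 21 days from day 7 on. Nuclei were sorted by the mCherry signal that the CLV3 promoter drives, so the sort rests on this promoter alone, and a methylation level at CLV3 or WUS cannot check it. Each mutant is represented by 1 insertion allele.

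The SUVH proteins carry an SRA domain, which binds methylated cytosine, and a SET domain of histone methyltransferases. SUVH4, also called KRYPTONITE, and its relatives SUVH5 and SUVH6 dimethylate lysine 9 of histone H3, a mark that is bound by the DNA methyltransferases CMT3 and CMT2, which act on CHG and CHH sites (H is A, C or T). SUVH2 and SUVH9 bind methylated DNA and bring RNA polymerase V to it, and SUVH1 and SUVH3 bind methylated DNA and act with DNAJ proteins on the transcription of nearby genes. Plant genes that are themselves methylated mostly carry the mark at CG sites within the transcribed part, where MET1 copies it at each round of replication. The question put to the data was how far the genes for these readers and writers of silencing were methylated, and whether heat or loss of either silencing factor moved this.

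In the TAIR10.1 RefSeq annotation the genes lie on chromosomes 1, 2, 4 and 5. SUVH1 (AT5G04940) is at chr5:1454131-1457141 on the minus strand, SUVH2 (AT2G33290) at chr2:14108529-14112464 on the plus strand and SUVH3 (AT1G73100) at chr1:27491184-27494182 on the plus strand. SUVH4 (AT5G13960) is at chr5:4501362-4506250 on the plus strand, and it alone has introns within its coding part, 13 of them. SUVH5 (AT2G35160) is at chr2:14822774-14826194 on the plus strand and SUVH6 (AT2G22740) at chr2:9662638-9667038 on the minus strand. SUVH7 (AT1G17770) is at chr1:6120741-6122822 on the plus strand, SUVH8 (AT2G24740, listed in the annotation as SDG21) at chr2:10529690-10531957 on the minus strand and SUVH9 (AT4G13460) at chr4:7823894-7827004 on the minus strand. The genes hold between 118 (SUVH3) and 260 (SUVH6) CG cytosines over both strands, and SUVH7 has the most per length, with 72.0 per 1000 bases against 37.0 in SUVH4.

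**Figure D1:**
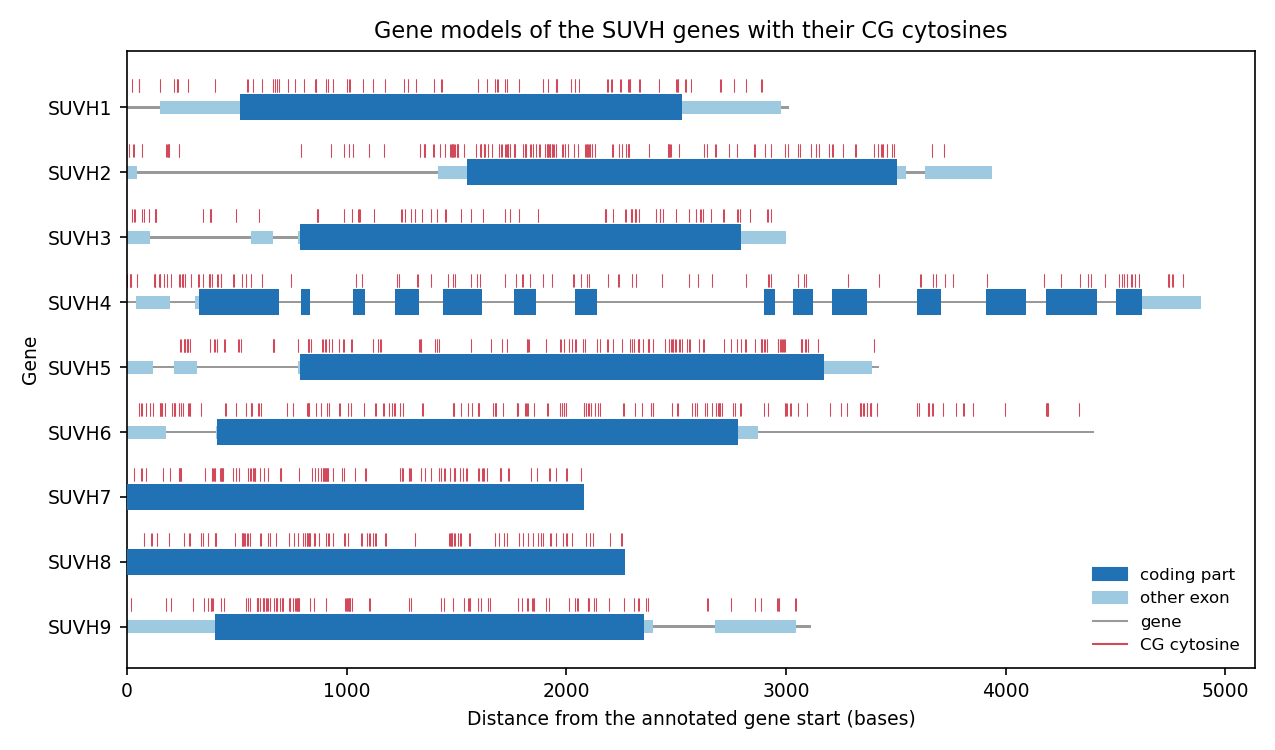
Gene models of the 9 SUVH genes, drawn from the annotated start of each gene in bases along the x axis, with the coding part, other exons and each CG cytosine of either strand. For each gene the transcript with the longest coding part is shown, and the SUVH4 coding part is split by 13 introns while the others have none.

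The coding parts pair off by sequence. SUVH7 and SUVH8 were identical at 81.2% of aligned coding bases, SUVH5 and SUVH6 at 72.6%, SUVH1 and SUVH3 at 68.9% and SUVH2 and SUVH9 at 66.7%, and each was the nearest relative of the other within the 9. SUVH4 had no such partner. By value it was nearest to SUVH1, at 63.0%, with SUVH8 (62.8%) and SUVH5 (61.7%) close behind. Coding stretches of 90 bases are shown for the relatives whose methylation the results compare, each aligned stretch being picked as the one where most CG sites are shared, with CG in capitals. They are read from the TAIR10.1 genome in RefSeq, 5′ to 3′ on the strand of the gene, and come from chr2:14825016-14825105 and chr2:9665184-9665273, from chr5:1455082-1455171 and chr1:27493424-27493513, from chr2:14111921-14112010 and chr4:7824676-7824765, and from chr1:6121235-6121324 and chr2:10531125-10531214.
SUVH5: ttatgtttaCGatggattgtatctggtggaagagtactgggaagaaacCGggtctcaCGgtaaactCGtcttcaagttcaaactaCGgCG
SUVH6: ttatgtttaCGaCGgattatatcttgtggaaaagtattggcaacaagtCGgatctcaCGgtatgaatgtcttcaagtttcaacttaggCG
SUVH1: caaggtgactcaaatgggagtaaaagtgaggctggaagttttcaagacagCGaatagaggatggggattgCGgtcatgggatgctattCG
SUVH3: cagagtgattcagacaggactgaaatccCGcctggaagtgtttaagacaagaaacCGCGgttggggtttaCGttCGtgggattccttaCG
SUVH2: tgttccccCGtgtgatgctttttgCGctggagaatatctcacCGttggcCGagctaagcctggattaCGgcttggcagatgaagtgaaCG
SUVH9: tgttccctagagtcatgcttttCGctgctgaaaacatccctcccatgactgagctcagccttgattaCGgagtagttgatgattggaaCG
SUVH7: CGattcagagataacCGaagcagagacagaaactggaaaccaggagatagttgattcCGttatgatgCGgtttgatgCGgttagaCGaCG
SUVH8: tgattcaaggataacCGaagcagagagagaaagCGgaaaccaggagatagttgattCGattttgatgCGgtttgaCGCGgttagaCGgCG
In these stretches SUVH5 has 6 CG sites and SUVH6 has 5, of which 4 align. SUVH1 has 3 and SUVH3 has 6, with 2 that align. SUVH2 has 6 and SUVH9 has 3, with 2 that align, and SUVH7 has 7 and SUVH8 has 8, with 5 that align. Over the whole coding parts, SUVH7 and SUVH8 had 33 aligned CG sites in common, of 75 and 72, and SUVH5 and SUVH6 had 31, of 77 and 79. SUVH2 and SUVH9 had 16 in common, of 78 and 67. SUVH1 and SUVH3 had only 8, of 48 and 44, fewer than the 14 that SUVH1 shares with SUVH7.

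A level is the number of methylated calls divided by all calls over a gene, a call being 1 cytosine read once. Each group has 1 set of values for its 2 samples, and the way the samples entered it is not stated in the paper or labels. No value therefore has a replicate error, intervals are 95% Wilson intervals of a share that cover counting error only, and tests compare the pooled libraries of the groups, not conditions across plants. Each SUVH gene had between 976 and 2950 CG calls, 1203 to 3536 CHG calls and 3939 to 13095 CHH calls. Summed over all features of the table, the groups had between 30597398 (wt control) and 48850347 (ddm1 control) CG calls. Chloroplast genes, which carry no methylation and so show the unconverted share, had CG levels between 0.328% and 0.739% and CHH levels between 0.390% and 0.805%, and the levels of all 3 heat groups were above those of all 3 control groups. The disrupted genes stood apart in their own mutants. DDM1 had a CHG level of 49.5% in ddm1 control and 48.7% in ddm1 heat against at most 0.594% in the wt and poliv groups, and NRPD1 had 14.9% in both poliv groups, 6.71% and 6.93% in ddm1 and at most 0.951% in wt.

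In wt, the SUVH genes ranged from free of CG methylation to methylated at most CG calls. SUVH5 had the highest CG level in wt control, 54.2% (interval 51.5 to 56.8), and SUVH7 the lowest, 0.221% (0.0752 to 0.648), which is below the chloroplast level of 0.328% in the same group. The median of the 9 was 24.6% in wt control, where the median of all 26975 protein-coding genes tested was 4.71% and their upper quartile 21.2%. In order, SUVH5 was followed by SUVH6 (38.8%), SUVH4 (36.1%), SUVH1 (31.6%), SUVH3 (24.6%), SUVH9 (23.8%), SUVH2 (13.3%), SUVH8 (7.79%) and SUVH7. Intervals of neighbours in this order overlapped for SUVH6 and SUVH4, for SUVH4 and SUVH1 and for SUVH3 and SUVH9, and not for the others. SUVH5 was higher than 94.9% of all genes tested, SUVH4 than 87.9% and SUVH7 than 13.1%. In wt heat the order was the same except that SUVH4 passed SUVH6 and SUVH9 passed SUVH3, each with overlapping intervals.

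**Figure D2:**
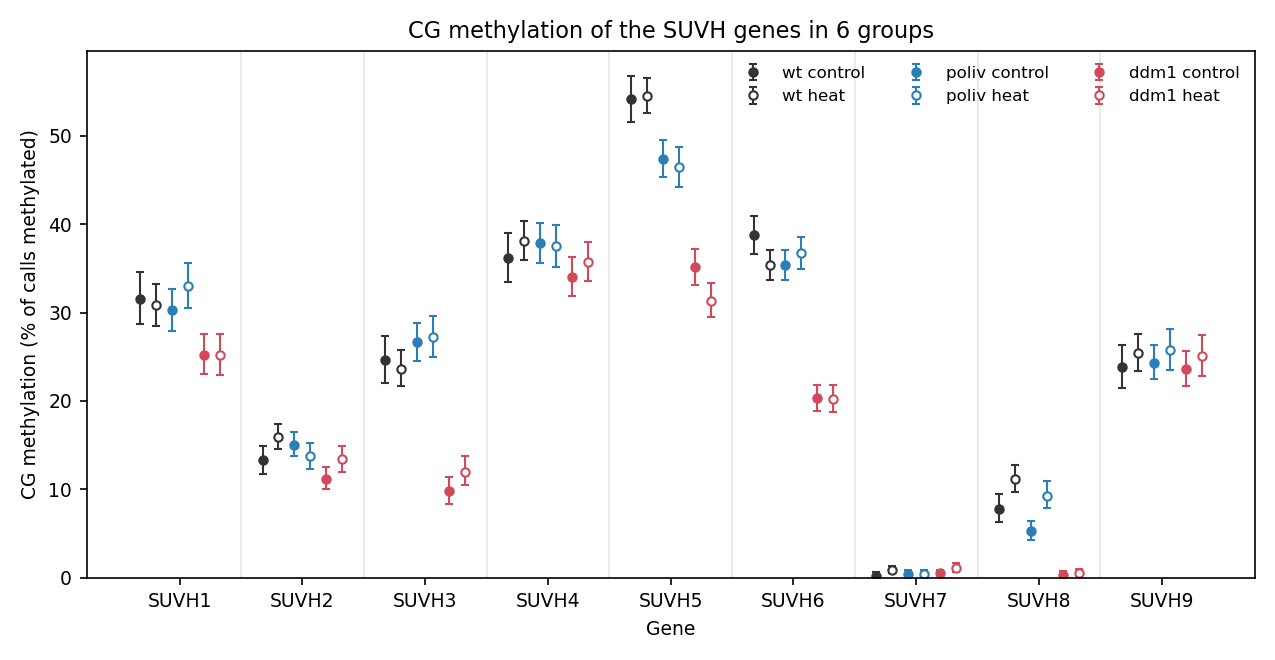
CG methylation of each SUVH gene on the x axis, as the share of calls methylated in percent on the y axis, for 6 groups. Points are pooled values with 95% Wilson intervals, filled for control and open for heat. In SUVH1, SUVH3, SUVH5, SUVH6 and SUVH8 both ddm1 groups lie below all wt and poliv groups with intervals apart, at levels between 0.368% and 35.2%. SUVH4 has this order by value with overlapping intervals, whereas SUVH9 stays between 23.6% and 25.8% in all 6 groups.

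Non-CG methylation of the SUVH genes was near the unconverted share in wt and poliv. CHG levels in these 4 groups lay between 0.0717% (SUVH7, wt control) and 1.20% (SUVH9, wt heat). CHH levels lay between 0.219% and 1.13% over all 9 genes and 6 groups. SUVH1 to SUVH6 and SUVH9, 7 members in all, had 10% CG or more with CHG under 5% in wt control and wt heat and are called body-methylated, a class of 9182 genes that was set after the data were seen.

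Loss of DDM1 went with lower CG methylation at 5 of the 9 genes, namely SUVH1, SUVH3, SUVH5, SUVH6 and SUVH8. A gene was called changed where the adjusted p was below 0.05 and the difference at least 5 percentage points, with the same direction in both treatments (the control pair and the heat pair). By this rule 21.6% of all protein-coding genes were lower in ddm1 and 0.163% were higher, and no SUVH gene was higher. Among the body-methylated genes the share called lower was 43.9%, and 4 of the 7 body-methylated SUVH genes were among them. The median difference of these 7 was -6.34 points for control and -5.60 points for heat, and over all body-methylated genes it was -5.24 and -5.80 points.

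SUVH5, an H3K9 methyltransferase, had the highest CG level of the listed members in wt and poliv. Among the listed members SUVH5 also had the most negative ddm1 difference by value in both pairs. In the control pair, however, the interval of the SUVH5 difference overlapped that of SUVH6. The CG levels of SUVH5 were 54.2% (wt control), 54.5% (wt heat), 47.4% (poliv control), 46.5% (poliv heat), 35.2% (ddm1 control) and 31.4% (ddm1 heat). The 3 genotypes did not overlap, with wt above poliv and poliv above ddm1. The ddm1 difference was -19.0 points (95% interval -22.3 to -15.6, Fisher's exact test, adjusted p = 2.75e-27) in the control pair and -23.2 points (-26.0 to -20.4, adjusted p = 3.26e-55) in the heat pair. Of body-methylated genes, 5.89% and 3.94% had a more negative difference in points in the 2 pairs. As a share, SUVH5 kept 64.9% and 57.5% of the wt level. This is near the lower quartiles of body-methylated genes, 60.5% and 58.7%.

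SUVH6, its nearest relative, had CG levels of 38.8% in wt control, 35.4% in wt heat, 35.4% in poliv control, 36.7% in poliv heat, 20.3% in ddm1 control and 20.3% in ddm1 heat. Both ddm1 groups were below all others, by -18.4 points in the control pair (-21.1 to -15.8, Fisher's exact test, adjusted p = 3.92e-42) and -15.1 points in the heat pair (-17.4 to -12.8, adjusted p = 6.40e-36). The annotation places a long non-coding RNA gene, AT2G07845 (chr2:9664200-9666686), inside SUVH6, and the whole coding part of SUVH6 lies within it. With control named before heat, this stretch was methylated at 48.0% and 44.9% of CG calls in wt, at 43.5% and 44.7% in poliv, and at 25.2% and 25.7% in ddm1. The rest of SUVH6, outside the coding part, had 14.9% and 12.5%, 15.8% and 16.8%, and 9.35% and 6.36%. Of the 1914 bases of this rest, 1496 also belong to the neighbouring gene AT2G22730. The coding stretch thus carried the higher level in every group, and both stretches had their lowest values in ddm1. Calls do not keep their strand in the table, so those of SUVH6, of AT2G07845 and of AT2G22730, which overlaps SUVH6 by 1496 bases, cannot be told apart where they overlap.

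**Figure D3:**
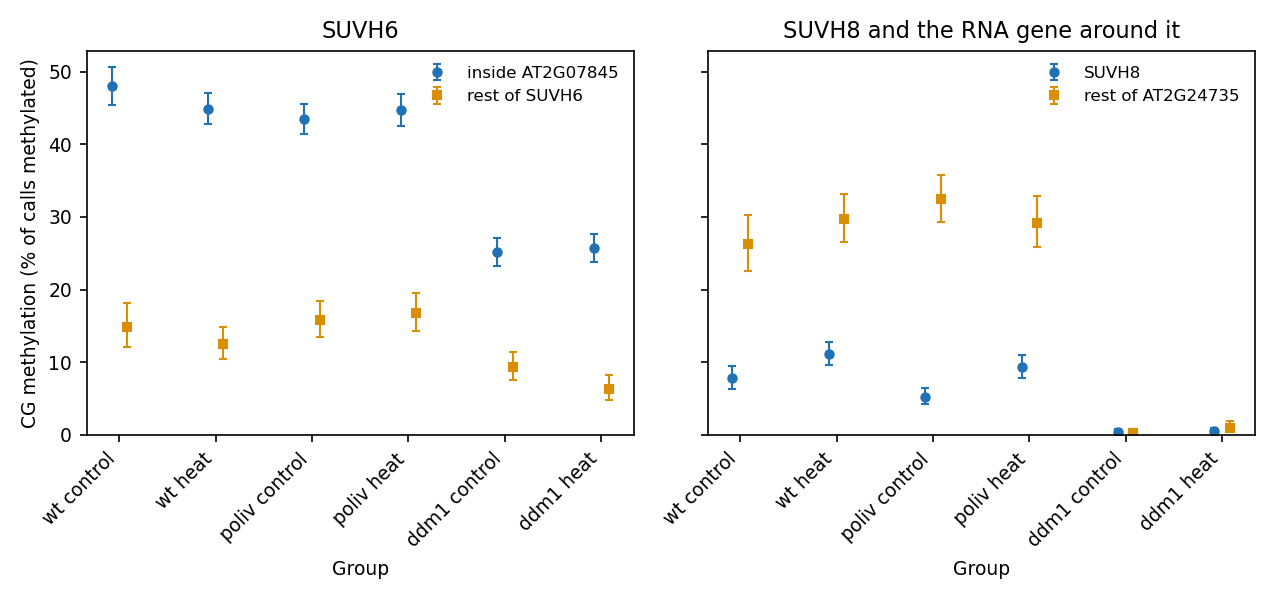
CG methylation as the share of calls methylated in percent, with 95% Wilson intervals, for 6 groups. On the left is SUVH6, split into the stretch shared with AT2G07845 (25.2% to 48.0%) and the rest (6.36% to 16.8%), and on the right SUVH8 (0.368% to 11.1%) and the rest of AT2G24735, the RNA gene around it (0.244% to 32.4%).

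SUVH3, a methylation reader tied to transcription, had CG levels of 24.6% in wt control, 23.6% in wt heat, 26.6% in poliv control, 27.2% in poliv heat, 9.77% in ddm1 control and 12.0% in ddm1 heat. It kept 39.7% of the wt level among controls and 50.8% after heat, the lowest shares among the body-methylated members. The differences were -14.8 points (-17.9 to -11.8, Fisher's exact test, adjusted p = 2.89e-22) and -11.6 points (-14.2 to -9.01, adjusted p = 6.00e-17). SUVH1, its nearest relative, differed less. SUVH1 had 31.6% in wt control, 30.8% in wt heat, 30.2% in poliv control, 33.0% in poliv heat, 25.2% in ddm1 control and 25.2% in ddm1 heat, and it kept 79.9% and 81.8% of the wt level. Its differences of -6.34 points (-10.1 to -2.66, Fisher's exact test, adjusted p = 0.00293) and -5.60 points (-8.86 to -2.33, adjusted p = 0.00279) are close to the medians of all body-methylated genes. With the statistics scaled for the spread seen between heat and control, the adjusted p for SUVH1 were 0.141 and 0.132 and the call was lost, which left 4 SUVH genes lower, beside 18.6% of all genes.

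SUVH8, the closest relative of SUVH7 and like it without introns, had low CG levels in wt and almost none in ddm1. Its levels were 7.79% in wt control, 11.1% in wt heat, 5.26% in poliv control, 9.29% in poliv heat, 0.368% in ddm1 control and 0.499% in ddm1 heat. Both ddm1 values were below the chloroplast level of their own group, 0.380% and 0.739%, and rest on 6 of 1631 and 7 of 1403 calls. The differences were -7.42 points (-9.15 to -5.93, Fisher's exact test, adjusted p = 1.54e-26) and -10.6 points (-12.3 to -9.09, adjusted p = 5.12e-40). SUVH8 lies inside a non-coding RNA gene, AT2G24735 (chr2:10528064-10533887). The rest of that gene had CG levels between 26.3% and 32.4% in the 4 wt and poliv groups and 0.244% and 0.931% in ddm1, and CHG levels between 8.06% and 10.9% in the 4 groups and 0.120% and 1.62% in ddm1. CHG methylation was thus present around SUVH8 in wt and poliv, while SUVH8 itself had CHG levels of 0.499% and 0.771% in wt. SUVH7 had CG levels of 0.221% in wt control, 0.829% in wt heat, 0.438% in poliv control, 0.399% in poliv heat, 0.504% in ddm1 control and 1.06% in ddm1 heat. All 6 lie within 0.322 points of the chloroplast level, so methylation of SUVH7, a gene known to be imprinted in the endosperm, was not detectable at this depth. SUVH7 and SUVH8 share much sequence, and whether reads were assigned to the wrong copy was not tested.

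SUVH4, SUVH9 and SUVH2 carried CG methylation that was not called different in ddm1. SUVH4, the founding H3K9 methyltransferase of the family, had 36.1% in wt control, 38.1% in wt heat, 37.9% in poliv control, 37.5% in poliv heat, 34.0% in ddm1 control and 35.8% in ddm1 heat. Its ddm1 differences were -2.12 points (-5.69 to 1.41) and -2.30 points (-5.43 to 0.836). A fall of more than 5.69 points lies outside both intervals, but these cover counting error only and do not exclude it across plants. SUVH9, a partner in the recruitment of polymerase V, had 23.8%, 25.4%, 24.3%, 25.8%, 23.6% and 25.1% in the same order of groups, with ddm1 differences of -0.168 points (-3.35 to 2.96) and -0.324 points (-3.42 to 2.80). SUVH2, its relative with the same role, had 13.3%, 15.9%, 15.1%, 13.7%, 11.2% and 13.4%. Its ddm1 differences were -2.09 points (-4.14 to -0.0793, Fisher's exact test, adjusted p = 0.115) and -2.54 points (-4.59 to -0.477, adjusted p = 0.0425), under the required size in both pairs. Because SUVH5 and SUVH6 were lower in ddm1 while SUVH4 differed little, SUVH4 had the highest CG level of the family in ddm1 heat, where its interval did not overlap that of SUVH5. In ddm1 control the SUVH5 and SUVH4 intervals overlapped.

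**Figure D4:**
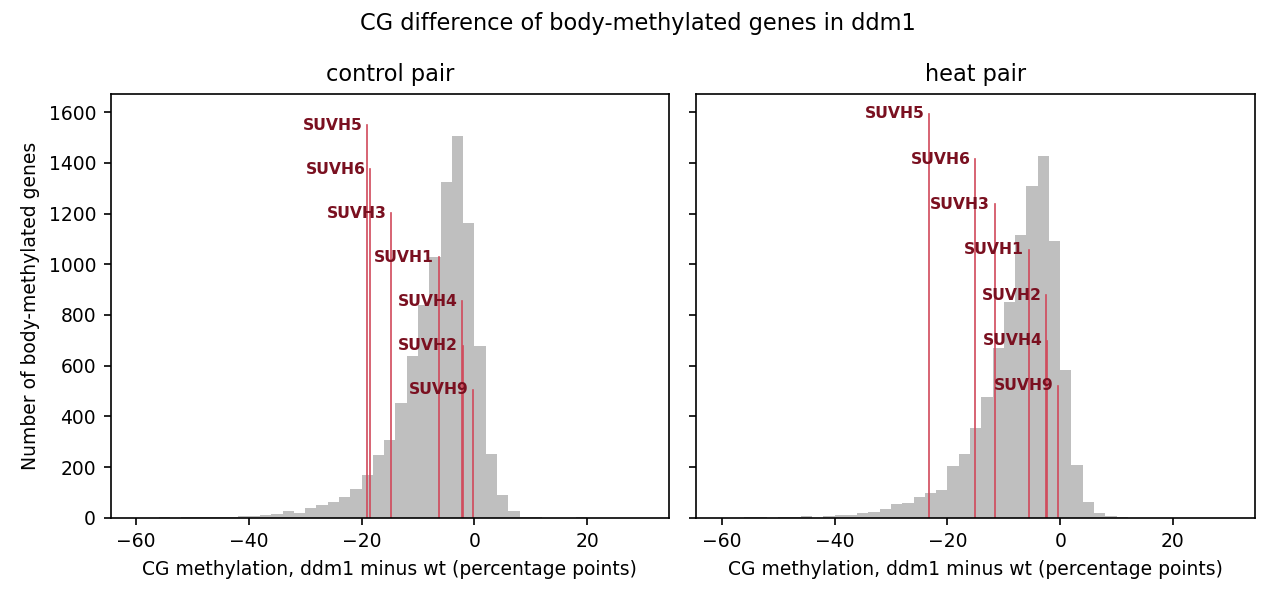
Difference in CG methylation between ddm1 and wt in percentage points on the x axis, for 9182 body-methylated genes counted on the y axis, for the control pair (left) and the heat pair (right). Lines mark the 7 body-methylated SUVH genes, from SUVH5 (-19.0 and -23.2 points) to SUVH9 (-0.168 and -0.324 points).

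In CHG no SUVH gene was called in both ddm1 pairs, where 5.45% of all genes were, and SUVH2 alone reached the required size in 1 pair. SUVH2 had CHG levels of 0.407% in wt control, 0.887% in wt heat, 0.584% in poliv control, 0.556% in poliv heat, 3.06% in ddm1 control and 6.01% in ddm1 heat. Both ddm1 values were above all others, and the differences were 2.66 points (1.94 to 3.42, Fisher's exact test, adjusted p = 7.31e-11) and 5.12 points (4.15 to 6.17, adjusted p = 1.68e-25). In the heat pair taken alone SUVH2 was the 1 SUVH gene called higher, beside 2.53% of all genes. SUVH4 had 0.390%, 0.707%, 0.432%, 1.04%, 2.29% and 2.19% in the same order, with differences of 1.90 points (1.31 to 2.50) and 1.48 points (0.916 to 2.10). SUVH1 had 1.19% and 1.33% in ddm1 against 0.122% and 0.573% in wt. With no required size, these 3 genes were called higher in CHG, beside 7.79% of all genes. With the chloroplast levels matched as well, 2 remained, SUVH2 and SUVH4, beside 7.03%, and with the scaling for spread added only SUVH2, beside 2.44%. These 3 genes include both members with a called CG difference (SUVH1) and members without (SUVH2 and SUVH4). SUVH3 and SUVH8, which were lower in CG, had CHG differences between -0.258 and 0.0439 points, and SUVH9, which was not, had 0.126 and -0.299 points. SUVH6, also lower in CG, had CHG levels of 0.426% in wt control, 0.534% in wt heat, 0.481% in ddm1 control and 1.15% in ddm1 heat. SUVH5 had 2.40% in ddm1 control and 1.34% in ddm1 heat, against 0.971% and 1.05% in wt. It was called in the control pair only when no size was required. The matching share of all genes is not given here, so this call has no baseline. CHH levels of all SUVH genes stayed within 0.691 points of wt in ddm1, and none was called, beside 0.542% of all genes.

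**Figure D5:**
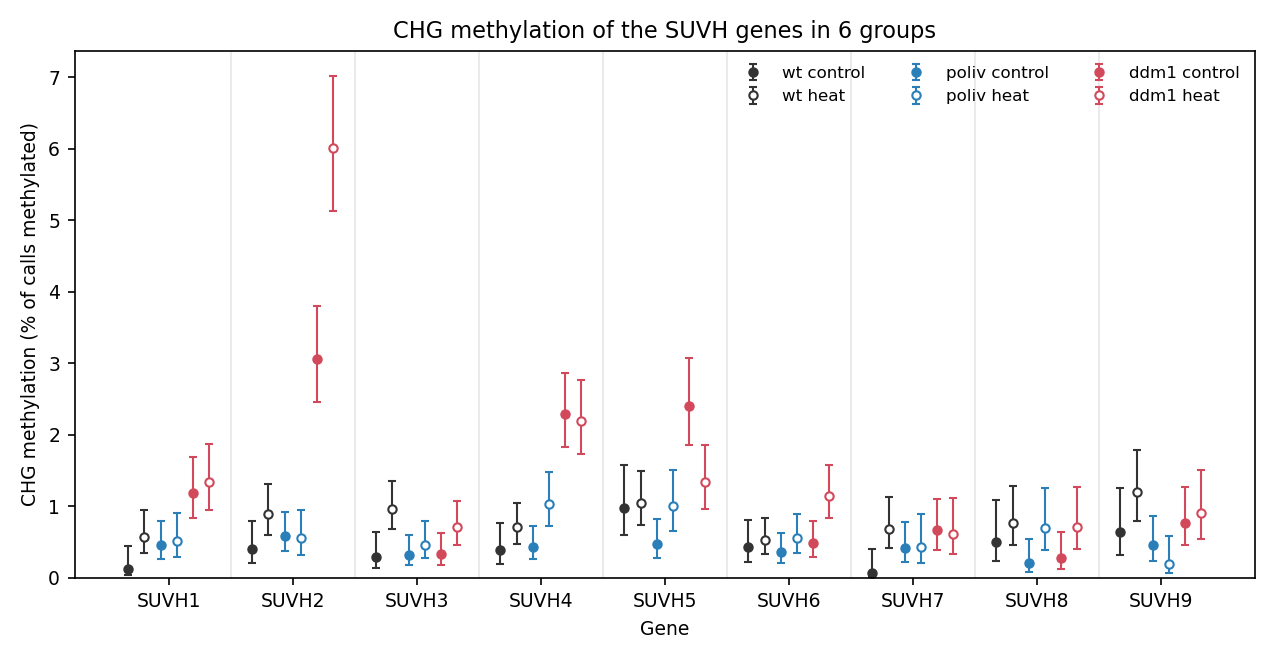
CHG methylation of each SUVH gene on the x axis, as the share of calls methylated in percent on the y axis, for 6 groups, with 95% Wilson intervals, filled for control and open for heat. SUVH2 in ddm1 stands highest, at 3.06% in control and 6.01% in heat, and SUVH4 in ddm1 follows at 2.29% and 2.19%.

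In poliv, SUVH5 was the 1 SUVH gene called, with lower CG methylation. Of all genes 0.879% were lower and 1.52% higher in poliv. SUVH5 differed from wt by -6.76 points (-10.1 to -3.40, Fisher's exact test, adjusted p = 0.00189) among controls and by -8.07 points (-11.1 to -5.005, adjusted p = 9.42e-06) in the heat pair, and 2.35% and 1.54% of body-methylated genes had a more negative difference. As a share, SUVH5 kept 87.5% and 85.2% of the wt level, where the lower quartiles of body-methylated genes were 93.6% and 93.1%. With the scaling for spread the adjusted p were 0.211 and 0.0251. The call thus rests on counting error as the only error in the control pair. Under that scaling 0.319% of all genes were called lower. The other 8 members differed from wt by between -3.38 and 3.57 points in CG. No SUVH gene was called in CHG or CHH in poliv, beside 0.341% and 0.195% of all genes.

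Heat 21 days earlier left no called difference at any SUVH gene in any genotype and context. In CG 0.69% of all genes were called in wt, 1.13% in poliv and 1.41% in ddm1. In CHG the shares were 0.0965%, 0.0742% and 1.12%, and in CHH 0.273%, 0.14% and 0.103%. Heat minus control in CG lay between -3.40 (SUVH6) and 3.34 points (SUVH8) in wt, between -1.33 (SUVH2) and 4.03 points (SUVH8) in poliv, and between -3.82 (SUVH5) and 2.25 points (SUVH3) in ddm1. By Fisher's exact test with no adjustment, 4, 1 and 2 of the 9 genes had a p below 0.05 in these 3 comparisons. The matching share of all genes is not given here, so these counts have no baseline and show nothing particular to the SUVH genes. SUVH8 had higher values after heat in both genotypes where it is methylated, by 3.34 points in wt (1.09 to 5.52, Fisher's exact test, adjusted p = 0.124) and by 4.03 points in poliv (2.20 to 5.93, adjusted p = 0.00328). The poliv value passed only when no size was required, beside 1.91% of all genes called higher in this way and 0.968% with chloroplast levels matched. With the scaling for spread its adjusted p in poliv was 0.801.

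The CHH level of most SUVH genes and the unconverted share were both higher after heat. With no required size, 6 SUVH genes were called higher in CHH after heat in wt, 3 in poliv and 6 in ddm1, beside 39.2%, 30.7% and 43.6% of all genes, while wt control had a chloroplast CHH level of 0.390% and wt heat one of 0.703%. With chloroplast levels matched no SUVH gene was called in CHH, beside 2.07%, 0.844% and 2.02% of all genes. SUVH2 in ddm1 differed in CHG, where heat exceeded control by 2.95 points (1.80 to 4.12, Fisher's exact test, adjusted p = 4.45e-05). It was the 1 SUVH gene called higher in that comparison when no size was required, beside 6.33% of all genes, and it stayed so with chloroplast levels matched, beside 2.06%. With the scaling for spread its adjusted p was 0.695.

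The difference of the heat effect between a mutant and wt was tested directly as a difference of 2 differences. No SUVH gene was called. In poliv the shares of all genes called were 1.11% for CG, 0.0371% for CHG and 0.35% for CHH, and in ddm1 they were 1.92%, 0.898% and 0.313%. For SUVH2 in ddm1 the CHG heat effect exceeded that of wt by 2.46 points (SE 0.633), with an adjusted p of 0.00591 by the normal test of call counts over all genes, under the required size. With no required size it was the 1 SUVH gene called, beside 1.86% of all genes. It was called so in CHH too, at 0.831 points (SE 0.182) and an adjusted p of 0.000434 over all genes, beside 3.42% of all genes. This rests on 1.13% in ddm1 heat, where the other 5 groups of SUVH2 lay between 0.397% and 0.557%. The scaling for spread gave an adjusted p of 1.00 for both. Together with matched chloroplast levels and no required size, it left 0.219% of all genes higher in CHG and 0.00369% in CHH. In CHH it called almost no gene, so the lost call there shows nothing particular to SUVH2.

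Among genes with at least 100 calls in every group and context, those closest to a member over its 18 levels were found for the members whose CG level ranged by at least 10 points. SUVH3 was closest to AT5G48640 (distance 3.10 points) and AT3G23255 (3.43), SUVH5 to AT1G29820 (5.62) and AT1G59890, SNL5 (6.39), SUVH6 to AT4G03000 (2.75) and AT3G53360 (3.19), and SUVH8 to AT1G65340, CYP96A3 (2.79) and AT2G41970 (3.19). Distances are Euclidean, over 25710 genes. SUVH5 was thus farther from its nearest genes than the other 3. For AT1G29820 the CG level went from 51.9% in wt control to 48.3% in poliv control and 33.1% in ddm1 control.

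SUVH10 (AT2G05900), a further gene of the family outside the 9, had CG levels of 36.5% in wt control, 53.6% in wt heat, 44.6% in poliv control, 41.6% in poliv heat, 3.50% in ddm1 control and 0.392% in ddm1 heat, on 178 to 334 calls. Both ddm1 groups were below all others, by -33.0 points (Fisher's exact test, adjusted p = 1.03e-19) and -53.2 points (adjusted p = 5.10e-47). The 17.1 points between wt heat and wt control had an adjusted p of 0.0553.

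Of 13 protein-coding genes within 1500 bases of a member, 3 were called lower in CG in ddm1, beside the 21.6% of all genes. They are AT2G33280 near SUVH2, AT2G35155 near SUVH5 and AT2G22730, which overlaps SUVH6. AT2G22730 shares its calls with SUVH6 over 1496 bases, so its call is not separate from that of SUVH6. AT2G35155, 751 bases before SUVH5, had 26.6% in wt control, 26.4% in wt heat, 21.9% in poliv control, 22.8% in poliv heat, 18.9% in ddm1 control and 14.6% in ddm1 heat. It had the same order of genotypes as SUVH5, but its poliv difference was not called (Fisher's exact test, adjusted p = 0.0241 and 0.0767). AT1G73110, which overlaps the end of SUVH3 by 62 bases, was the 1 neighbour called in poliv, with a higher level, from 4.38% to 17.1% among controls and from 6.02% to 14.1% after heat, whereas SUVH3 itself differed by 2.04 and 3.57 points.

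A list of silencing genes, demethylase genes and their regulators gave 9 of 21 called lower in CG in ddm1. Beside this stand 21.6% of all genes and 43.9% of body-methylated genes. None of the list was called higher in CG, and none was called in CG in poliv or after heat. With the scaling for spread 7 were called lower, without DRM2 and DRD1, beside 18.6% of all genes. The 9 are the methyltransferases CMT2 and DRM2, the SET-domain relatives SUVR2, SUVR4 and SUVR5, the demethylase ROS1, the polymerase V subunit NRPE1, the remodeller DRD1 and EDM2, a regulator of IBM1. ROS1 had the largest difference, from 25.1% in wt control to 6.91% in ddm1 control and from 26.1% in wt heat to 4.15% in ddm1 heat. SUVR5 had the highest level, 70.3% in wt control against 53.3% in ddm1 control. CMT3 and MET1 were not called, with CG levels of 8.49% and 13.7% in wt control and 9.34% and 14.1% in ddm1 control. In CHG the 1 gene of the list called higher in ddm1, beside 1.61% of all genes, was LDL1, a histone demethylase gene, which had 0.282% in wt control, 1.06% in wt heat, 13.1% in ddm1 control and 23.4% in ddm1 heat. LDL1 was also the 1 gene of the list called higher in CHG after heat in ddm1, beside 0.968% of all genes. This call stayed with the scaling for spread, beside 0.338%.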

How the data were processed

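Nuclei of 12 samples in 6 groups were sequenced after bisulfite conversion. Per the submitters' processing notes and the methods, adaptors were cut with Trim Galore 0.6.2 and reads mapped to TAIR10 by Bismark 0.22.2, which also dropped duplicates. Methylpy gave the cytosine calls, and bedtools 2.27 is named too. The deposited counts, 36 columns, are the authors' methylated calls and coverage per gene, context and group, with 1 value per group. A further 18 columns, the deposited fractions, were not used, and levels were computed from the counts. The members and gene lists were chosen with earlier results of these data known.

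Tests were two-sided Fisher's exact tests on methylated and unmethylated calls (p as the doubled smaller tail), with Benjamini-Hochberg adjustment over all protein-coding nuclear genes with a value in all 6 groups, at a threshold of 0.05 and a difference of at least 5 points. Mutants had to pass in both pairs. The difference of heat effects used a normal test with 0.5 added to each kind of call. Intervals of differences are Newcombe intervals. Alternatives were no floor, 10 points, matched chloroplast background (unmethylated calls converted at random, seed 7), statistics divided by the square root of a dispersion factor of 2.33 to 11.3 from the heat comparisons, at least 100 calls, and adjustment over genes and TEs. Combinations of these and the body-methylated class were added after the data were seen. Named genes are the 9 members, SUVH10, the 2 disrupted genes and a list of 23 silencing, demethylase and regulator genes. Of this list 2 were left out for differing symbols. The 2 nearest patterns of each member with a CG range of at least 10 points are named too. So are neighbours, chosen after their values were seen. Coordinates and sequences are from TAIR10.1 in RefSeq, which holds the nuclear assembly of TAIR10. Annotated gene identifiers matched in 37898 of 38386 cases. The tests were tried on simulated binomial calls. These held no added spread and no difference in unconverted share, so they do not show how the tests behave on these pooled libraries. Analyses used Python 3.11.15, numpy 2.4.6, scipy 1.17.1, pandas 2.3.3, Biopython 1.88 and matplotlib 3.10.9.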

Additional observations from a re-analysis of the deposited data

How the results depend on the processing

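No paired analysis was possible because each group has 1 value for its 2 samples, and for the same reason no sample could be left out in turn. Counts of SUVH genes called changed as follows. With a floor of 10 points, 3 genes were lower in CG in ddm1 and 0 in poliv, beside 11.6% and 0.171% of all genes. With dispersion scaling 0 were lower in poliv, with or without the floor and background matching. With no floor, 6, 3 and 6 genes were higher in CHH after heat in wt, poliv and ddm1, 1 (SUVH8) was higher in CG after heat in poliv, 1 (SUVH2) was higher in CHG after heat in ddm1, 3 were higher in CHG in ddm1, and the heat effect of ddm1 exceeded that of wt at 1 gene (SUVH2) in CHG and at 1 in CHH. With background matching and no floor, these counts were 0, 0 and 0 in CHH, 1 in CG and 1 in CHG after heat. In that CHG comparison 1 gene (SUVH5) was lower, beside 0.746% of all genes. In ddm1 against wt 2 were higher in CHG. The difference of heat effects gave 1 each in CHG and CHH, beside 1.73% and 1.89% of all genes. Dispersion scaling added to background matching and no floor left 1 in CHG in ddm1, and the heat pair alone gave 1. The other alternatives run kept each count within 1.5 times. Subtracting the chloroplast level moved CG levels out of their counting intervals at SUVH7 in all 6 groups and at SUVH8 in both ddm1 groups, and at none of the other 7 members. The SUVH10 level in ddm1 heat moved too, from 0.392% to -0.347%. Dispersion scaling assumes that most genes do not differ with heat. Its factor comes from counts without background matching, so it also takes in the difference in unconverted share between heat and control. CHH differences under the chloroplast levels cannot be read at this conversion.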
